A study of Bos taurus with 72 samples.

Results

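Blood of 16 beef cattle was compared between the stage named pulled and the stage named entry, with the 2 libraries of each animal paired. These 32 libraries are part of 72 from 24 animals, each sampled at entry, pulled and close-out. Members were chosen by the number that ends the library title: animals with a number of 98 or less, without the animals numbered 26 and 41 (animals 9 and 12 in the labels). All groups were whole blood of male cattle, collected in PAXgene tubes. The labels give no age, diagnosis, treatment, pathogen, sampling day or library batch, and the stages were not set against healthy cattle of the same age. Age and days in the feedlot therefore change with the stage and cannot be told apart from whatever led to the pull.

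In a feedlot, an animal is pulled when it is taken out of its pen for examination or treatment. The series title names bovine respiratory disease, a disease complex of newly received cattle in which viruses and bacteria act together with the stress of transport and mixing. Whole blood carries RNA of neutrophils, lymphocytes, monocytes, platelets and young red cells. In such bulk samples, fewer cells of a type and less RNA per cell cannot be told apart.

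The genes are Ensembl identifiers, and 0 of the 24616 could be paired with a name from the gene table at hand. Genes are therefore described by their level and change, and identifiers are printed for 2 rises and 2 falls. No marker of a blood cell type could be located, so the labelled tissue was not checked and 31 gene lists of immune functions and cell types were not computed.

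Values of these libraries set the animals apart. In the first principal component of all 72 libraries (40.9% of the variance of log2 CPM, the log2 of counts per megaread), the entry libraries of the 16 animals scored from -91.7 to 0.98, with a median of -42.9. Those of the 6 animals with title numbers above 100 scored from 34.1 to 100 (median 58.2). Nearest the boundary, the entry library of animal 24, with the number 98, scored -39.1 and that of animal 2, with the lowest number above 100, scored 100. Since entry values took part in this choice, the tests below describe these 16 animals. They are no independent evidence that the change is general, and no test against the 6 animals is given.

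Each pulled library matched its own animal. Over 100 genes chosen for repeatable differences between animals at entry and close-out, pulled libraries correlated with their own entry library at 0.801 or more (median 0.933) and with those of other animals at 0.467 or less (240 pairs). The same genes gave -0.0265 for animal 9 and 0.0573 for animal 12, the 2 animals left out. They were left out because their pulled libraries did not match the animal, so these correlations check that choice and are no separate finding. The library labelled pulled of animal 9 was nearly identical to the entry library of animal 11, which is among the 16 (chi-square per degree of freedom 1.46, against 36.5 for the closest pair among the 32). Total counts of the 32 libraries ran from 9.46 to 25.4 M (megareads), with a median of 18.9 M.

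Of the library measures, 2 shifted with the stage. The TMM scaling factor, which places the bulk of genes of each library at a common level, was 1.12 ± 0.0787 at entry and 0.901 ± 0.0775 at pulled (SD, n = 16), lower in 16 of 16 animals (exact sign-flip permutation test, two-sided, p = 3.05e-05, the smallest it can give; adjusted p = 0.000122 over 4 measures). Genes with at least 1 count numbered 15575 ± 342 at entry and 15076 ± 352 at pulled, lower in 13 of 16 animals (exact permutation test, adjusted p = 0.00537). Total counts were 18.1 ± 5.27 M at entry and 17.5 ± 4.46 M at pulled, with 8 animals higher and 8 lower (exact permutation test, adjusted p = 0.745). The share of counts in the 10 most abundant genes was 7.44% ± 0.711 at entry and 7.81% ± 1.08 at pulled, higher in 10 of 16 (exact permutation test, adjusted p = 0.263). The part of these library measures in the gene changes below was not tested.

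The main axis of variation among the 32 libraries went with the stage. The first principal component, computed on these libraries alone, held 46.2% of the variance and the second 12.8%. Entry libraries scored from -79.0 to 8.79 on the first component (median -32.9), and pulled libraries from -4.31 to 73.2 (median 46.2). The pulled library lay above its own entry library in 15 of 16 animals, and 13 pulled libraries lay above every entry library. Entry values took part in the choice of these animals, so this separation is a description of them. Animals 13 and 19 hardly moved on this axis, from 8.79 to 8.29 and from -7.42 to -4.31. Both moved on the second component, animal 13 from -21.7 to 28.8 and animal 19 from -15.3 to 62.0. Animals that moved on the first component also shifted on the second, in either direction. Animal 8 went from -17.4 to 23.1 there and animal 11 from 40.3 to -12.1.

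**Figure D1:**
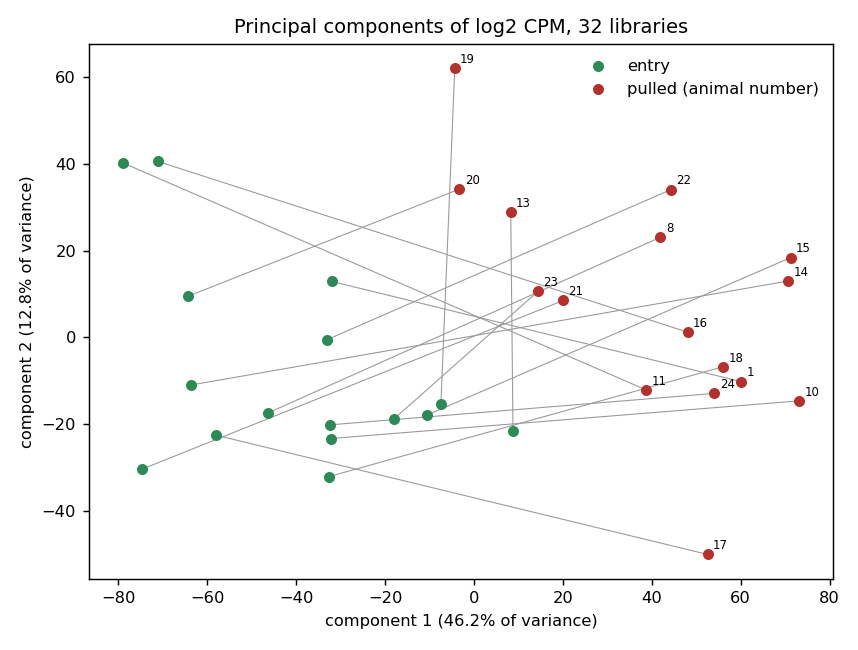
Scores of the 16 entry (green) and 16 pulled (red) libraries on the first and second principal components of log2 CPM, with a line joining the libraries of each animal and the animal number beside its pulled library. Most lines run from left to right, while those of animals 13 and 19 run upwards.

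Most of the genes kept by the low-count filter differed between the stages. Of 12353 genes tested, 4155 (33.6%) rose and 4686 (37.9%) fell from entry to pulled (edgeR quasi-likelihood test with the animal as block, adjusted p under 0.05), together 71.6% of the genes. Over all called genes together the falls were larger than the rises, though not among the most abundant genes (medians by abundance below). Genes that rose had a median log2 fold change of 0.58 and genes that fell one of -0.82, beside -0.02 over all genes tested. More than 2-fold changes were passed by 333 higher genes (2.7%) and 1753 lower genes (14.2%), and more than 4-fold changes by 0.089% and 1.17% of the genes. Against a 1.5-fold change as the null, 853 genes (6.91%) were higher and 2178 (17.6%) lower (edgeR). With library totals in place of TMM, 2124 genes were higher and 6472 lower, so the share of lower genes among those called went from 53.0% to 75.3%. Over all genes the median then moved to -0.34. The balance was near even with RLE, another scaling of libraries, in edgeR (4420 higher, 4454 lower) and with DESeq2 (4571 higher, 4549 lower). It turned the other way with quantile normalization in limma-voom (4612 higher, 4019 lower, so 46.6% lower). That alternative was chosen after seeing the data. Which direction held more genes therefore depended on the scaling.

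Many of these changes repeated animal by animal under TMM scaling. In 839 genes (6.79%) the pulled value was above the entry value in 16 of 16 animals, and in 1062 genes (8.6%) it was below in all 16; each of these genes also passed the edgeR test. Genes past the test with a mean of 1 log2 CPM or more and 1 direction in 14 or more animals numbered 2539 higher (20.6%) and 3040 lower (24.6%), and the 4 printed genes are the extremes of these. Their close-out levels are given below as a description: genes picked for an extreme pulled minus entry difference tend by that choice alone to lie between both values at another sampling, so no return from pulled is read from them. Complete separation, with every pulled value above every entry value, occurred in 183 genes (1.48%), and with every pulled value below in 193 genes (1.56%).

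Gene ENSBTAG00000018016 rose in every one of the 16 animals. Its level was between 3.00 and 6.52 log2 CPM at entry (median 4.17) and between 4.81 and 7.82 at pulled (median 6.38). The stages overlapped, since 8 of the 16 pulled values lay under the highest entry value. The log2 fold change was 2.02 (SE 0.29, edgeR adjusted p = 6.12e-06), and single animals rose by 0.46 to 3.93 on the log2 scale. At close-out the same animals had 3.74 to 5.61 log2 CPM (median 4.74), below their pulled value in 15 of 16 and above their entry value in 12 of 16. In the 6 animals with numbers above 100 the change had the same sign in 6 of 6, with a mean of 1.65 on the log2 scale.

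Gene ENSBTAG00000017969 gave the largest rise among the genes that met the rule for printing. Its level ran from 1.27 to 5.70 log2 CPM at entry (median 2.62) and from 2.47 to 6.87 at pulled (median 5.08). The log2 fold change was 2.28 (SE 0.37, edgeR adjusted p = 2.84e-05). Animals differed widely here. In 14 the pulled value was higher, by up to 3.94 on the log2 scale, while animal 11 went from 4.38 to 2.47 log2 CPM and animal 16 from 5.70 to 5.48. Those 2 animals had entry levels among the highest 3 of the 16, and 11 of 16 pulled values lay under the highest entry value. At close-out the levels ran from 2.21 to 4.39 log2 CPM (median 3.32; SD 0.65, beside 1.28 at entry and 1.18 at pulled). Of the 6 animals above 100, 3 were higher and 3 lower at pulled (mean change 0.27).

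Gene ENSBTAG00000011824 gave the largest fall. Its level ran from 1.99 to 4.93 log2 CPM at entry (median 3.30) and from -2.10 to 1.60 at pulled (median 0.30), so no pulled value reached the lowest entry value, as in 1.56% of all genes. Its counts were 43 to 499 per library at entry and 1 to 46 at pulled. The log2 fold change was -3.29 (SE 0.27, edgeR adjusted p = 7.88e-08), a 9.78-fold lower level, and single animals changed by -5.19 to -1.49. At close-out its level was above the pulled value in 15 of 16 animals (median 2.31) and below the entry value in 12 of 16. The 6 animals above 100 were lower already at entry, with 1.32 log2 CPM at most, and 5 of 6 were lower at pulled than at entry.

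Gene ENSBTAG00000008285 fell in 15 of 16 animals. Its level ran from 0.54 to 4.10 log2 CPM at entry (median 2.64) and from -1.51 to 1.21 at pulled (median 0.20), and 3 pulled values lay above the lowest entry value. The log2 fold change was -2.94 (SE 0.33, edgeR adjusted p = 6.90e-07). Animal 13, the exception, had the lowest entry level and went from 0.54 to 0.59 log2 CPM. At close-out the gene stood below its entry value in 15 of 16 animals, with a median of 0.70 log2 CPM and a range from -1.56 to 3.65, wider than at either earlier stage. In the 6 animals above 100 the entry levels were all under zero (-1.86 to -0.55 log2 CPM), from only 2 to 9 counts per library. Their change at pulled was above zero in 6 of 6, with a mean of 1.85 on the log2 scale. It ran from 0.0016 in animal 4, which is next to no change, to 3.49 in animal 3.

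**Figure D2:**
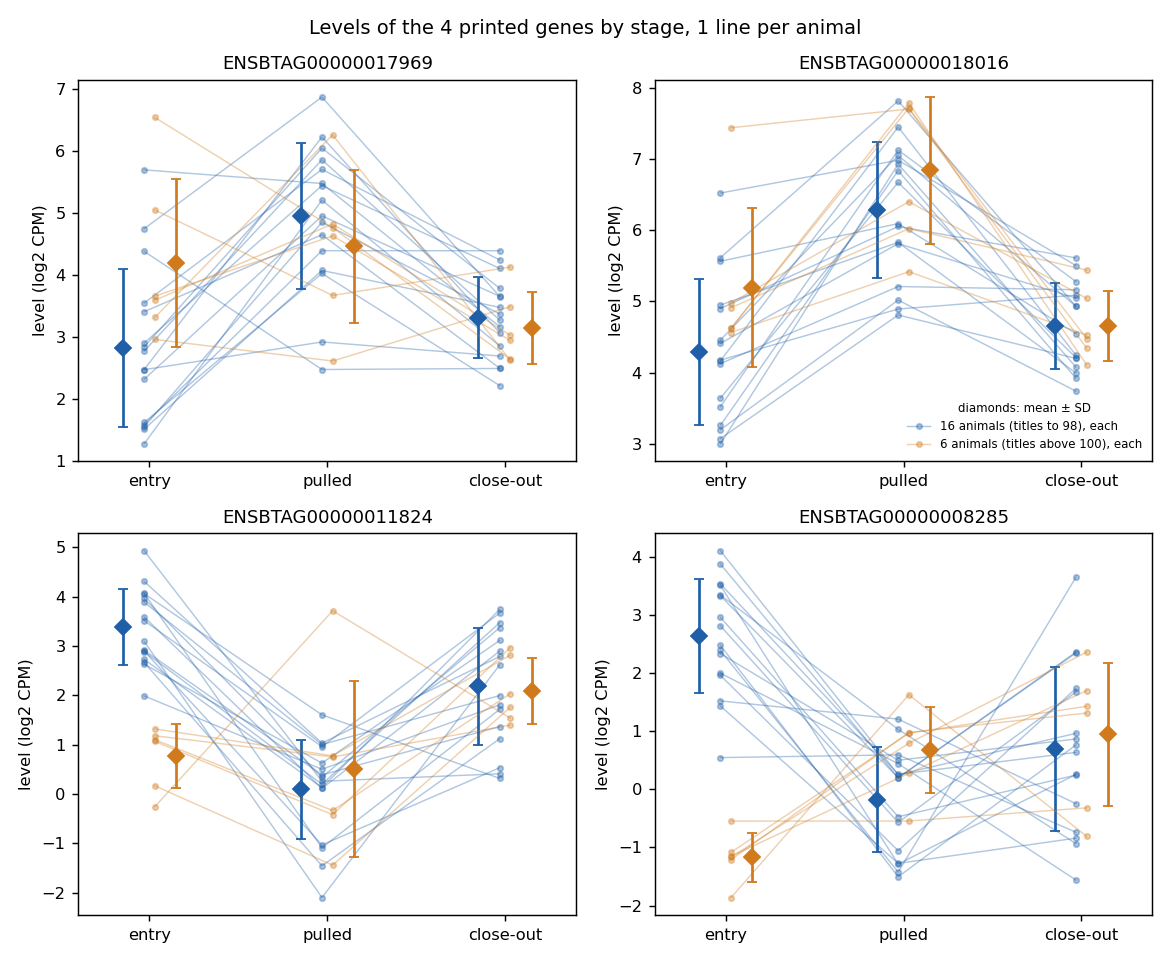
Level in log2 CPM of the 4 printed genes at entry, pulled and close-out, with 1 line per animal (blue for the 16 animals, orange for the 6 with title numbers above 100) and diamonds for the mean ± SD. In the 16 animals the mean of the upper genes is highest and that of the lower genes lowest at pulled, the stage on which the genes were chosen.

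Direction went with abundance under TMM scaling. Quantile normalization largely removed this pattern, as its construction tends to do (counts below). The tested genes were divided into 4 bins of like size by their mean log2 CPM over the 32 libraries, with both stages weighted alike. In the most abundant bin (5.85 log2 CPM and above) 1997 of 3089 genes (64.6%) were higher and 405 (13.1%) lower at pulled. In the least abundant bin (up to 1.93 log2 CPM) 462 of 3088 (15.0%) were higher and 1469 (47.6%) lower. The second bin held 573 higher and 1670 lower genes, and the third 1123 and 1142. With library totals in place of TMM, the most abundant bin held 1169 higher and 832 lower genes, the third bin 512 and 1674, the second 247 and 2093, and the least abundant bin 196 and 1873. Among lower genes the median log2 fold change went from -1.03 in the least abundant bin to -0.50 in the most abundant, while among higher genes it was 0.69 and 0.58.

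The counts themselves moved the same way. Genes called higher held 52.6% ± 3.57 of all counts at entry and 65.8% ± 2.52 at pulled (SD, n = 16), and the lowest pulled library (62.0%) was above the highest entry library (60.2%). Genes called lower held 18.7% ± 3.06 at entry and 9.70% ± 1.74 at pulled. These genes were chosen by their change, so the shares are a description.

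**Figure D3:**
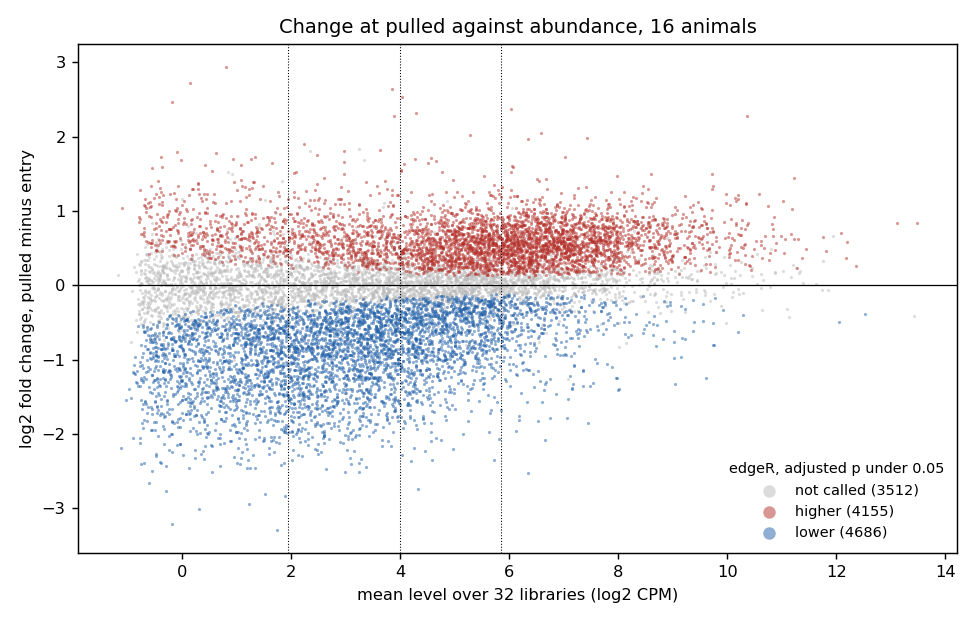
Log2 fold change of pulled minus entry against mean level in log2 CPM for the 12353 tested genes, coloured by the edgeR call, with dotted lines at the borders of the abundance bins. Falls prevail among genes of low level and rises among genes of high level.

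The abundance pattern was present in nearly every one of the 16 animals. In the most abundant bin the median change was above zero in 16 of 16 animals, from 0.02 to 0.62 on the log2 scale (median 0.41). In the least abundant bin it was below zero in 15 of 16, from -0.62 to 0.04 (median -0.44). The top bin minus the bottom bin, a difference that a common scaling of a library leaves nearly as it is, was 0.82 in the median animal. It was 1.25 in animal 14 at the high end, and 0.32, 0.25 and -0.02 in animals 23, 19 and 13 at the low end. From pulled to close-out the same difference was below zero in 12 of the 16 animals (median -0.27), and both comparisons share the pulled libraries. In the 6 animals above 100 the pulled minus entry difference was below zero in 5 of 6 (median -0.48). With quantile normalization, which gives every library the same distribution of values, the least abundant bin held 1043 higher and 913 lower genes and the most abundant 1219 and 861 (limma-voom, chosen after seeing the data). Under that setting higher genes outnumbered lower ones in both bins, so the opposite directions of the bins were gone. Equal distributions largely fix this outcome in advance, so the loss is no test of the abundance pattern.

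**Figure D4:**
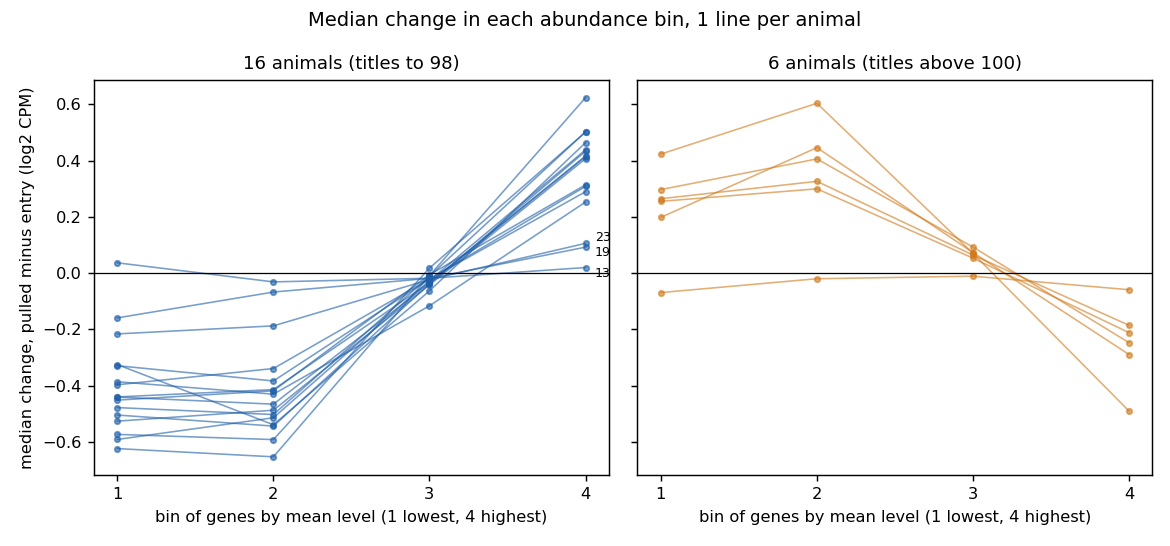
Median change from entry to pulled (log2 CPM) of the genes in each of 4 bins of mean level, with 1 line per animal for the 16 animals (left; animals 13, 19 and 23 numbered) and the 6 with title numbers above 100 (right). From the lowest to the highest bin, 15 of 16 lines on the left rise (medians -0.44 and 0.41) and most lines on the right fall. The 2 lower bins on the left have like medians (-0.44 and -0.45).

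Each animal was also scored with genes chosen without it. The edgeR model was fitted to the other 15 animals, the 100 higher and 100 lower genes with the smallest p were taken, and the mean log2 CPM of the lower genes was subtracted from that of the higher genes to give a score. The score rose from 1.80 ± 0.60 at entry to 4.01 ± 0.49 at pulled (SD, n = 16), and every animal's pulled score was above every entry score (3.39 at least against 2.78 at most). The gene lists differ from animal to animal, so only the rise within an animal compares scores of the same genes. The rise ran from 0.76 in animal 13 and 1.11 in animal 19 to 3.48 in animal 14, with a median of 2.47. The choice of these animals used their entry libraries, so the common direction is not evidence from outside the 16.

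The share of all called genes that moved with the other animals varied. Of all genes called in the other 15 animals, the left-out animal moved the same way in a median of 91.6% of the higher genes and 93.8% of the lower genes. Animals 13 and 19 stood apart with 54.6% and 55.2% of the higher genes and 53.1% and 55.9% of the lower genes. Animal 23 followed with 74.3% and 81.1%, and the other 13 animals had at least 83.7% and 91.1%. These 2 animals thus rose in the score of the strongest genes, while a much smaller share of all called genes moved with the other animals.

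At close-out the score of the 16 animals was 3.07 ± 0.93 (SD, n = 16), from 1.34 in animal 1 to 4.35 in animal 23. It was above the animal's own entry score in 15 of 16 and below its own pulled score in 12 of 16. With genes chosen in all 16, the 6 animals above 100 had an entry score of 4.64 ± 0.65, a pulled score of 3.82 ± 0.53 and a close-out score of 3.07 ± 0.65 (SD, n = 6). Their pulled score was above their entry score in 1 of 6. Entry values took part in setting the 6 animals apart from the 16, and the score genes were chosen on the 16. The scores are therefore a description, and no difference between these animals and no return from pulled is read from them.

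**Figure D5:**
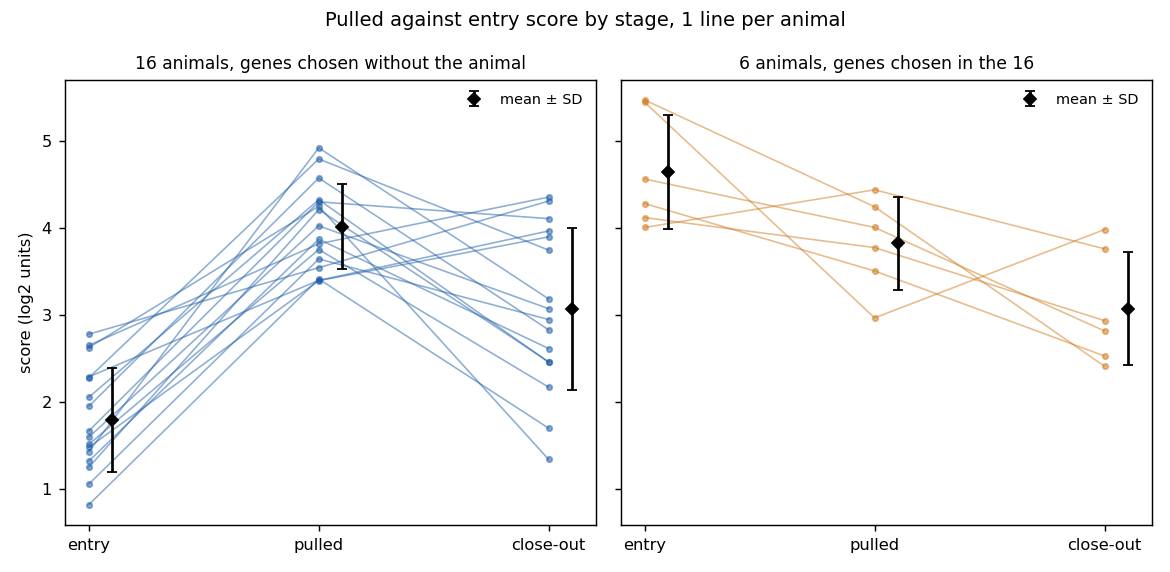
Score by stage in log2 units, with 1 line per animal and diamonds for the mean ± SD, for the 16 animals with genes chosen without the animal (left) and for the 6 animals above 100 with genes chosen in the 16 (right). All lines on the left rise from entry to pulled, and the close-out scores spread between 1.34 and 4.35.

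The spread between animals was described for each stage. The SD between animals was larger at pulled in 8438 of 12353 genes (68.3%), and its median over genes was 0.36 log2 CPM at entry, 0.40 at pulled and, for comparison, 0.43 in the close-out libraries. The change from entry to pulled had a median SD of 0.50. The 16 animals were set apart by their entry values, which may narrow the spread at entry. How far this choice did so was not tested, so no difference in spread between the stages is read from these values. Genes are also not independent replicates.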

How the data were processed

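The deposited values are the authors' read counts per Ensembl gene, with no normalization. TopHat2, HTSeq and the build UMD3.1 are named per the submitters' processing notes. Their versions, the annotation and whether counting used strand are not given in the sources used, so overlapping or near-identical genes cannot be told apart. Per the labels' protocols, libraries were poly-A selected. All columns were matched to a sample. The gene table for names was of ARS-UCD2.0.

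The members, lists and tests were chosen with earlier results of these data known. In R 4.3.3, genes were filtered by edgeR 4.0.16 over the 32 libraries (12353 kept), scaled by TMM and fitted with animal and stage in a robust quasi-likelihood model, with Benjamini-Hochberg adjustment. The SE was derived from the fold change and its F statistic. Levels are log2 CPM with a prior count of 2 and TMM over all 72 libraries. Printed genes passed the test, averaged 1 log2 CPM or more, had 1 direction in 14 or more of the 16 animals, and had the largest log2 fold changes (2 per direction). The chi-square between libraries used genes averaging 100 counts or more, with 20 or more in the pair.

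Libraries were paired by the labels' animal number. Deviations from stage means correlated within animals at a median of 0.229 (-0.274 to 0.705), above 0.1 in 11 of 16. On simulated counts of 12353 genes for this comparison, edgeR recovered 70% of 100 genes changed 1.5-fold and 99% of 100 changed 2-fold, with 9 false calls among 178. Genes were drawn independently, and each had the spread of the trend over abundance in place of its own. False calls in the real counts may therefore be more frequent, and recovery of variable genes lower. The changed genes had 1 log2 CPM or more and were split evenly between rises and falls. Recovery was not tested for weaker genes or with as many changes as in the real counts, where 71.6% of genes were called. Alternatives used limma 3.58.1 and DESeq2 1.42.0.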

Additional observations from a re-analysis of the deposited data

Results flagged for a closer look

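In the most abundant of the 4 bins of genes, the median change from entry to pulled was above zero in each of the 16 animals (0.02 to 0.62 on the log2 scale, median 0.41) and below zero in each of the 6 animals with title numbers above 100 (median -0.23, highest -0.06). The difference was not tested, because entry values took part in setting these animals apart. Among 23 groups of 6 values checked for a single distant value, 2 had one, and chance gives about 1 in 20. Gene ENSBTAG00000018016 at entry stood at 7.44 log2 CPM in animal 5, where the other 5 animals had 4.98 at most. Gene ENSBTAG00000011824 changed by 3.97 on the log2 scale in animal 3, while the other 5 animals changed by -1.61 to -0.43.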

How the results depend on the processing

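The 4 printed genes kept their direction and passed the threshold under all 12 settings tried besides leaving out animals (highest edgeR adjusted p = 0.000537, against a 1.5-fold change) and without each animal in turn (highest 9.08e-05). The counts of higher and lower genes moved by more than 1.5 times under these settings: with library totals only, 2124 higher genes, and against a 1.5-fold change, 853 higher and 2178 lower genes, where fewer pass by construction. With library totals 27 genes were called in the opposite direction to the TMM fit, and with quantile normalization 57. More than 2-fold changes numbered 80 higher and 2822 lower with library totals, and 700 and 1065 with quantile normalization, an alternative chosen after seeing the data. Without the replicate block, that is without the pairing by animal, 4091 genes were higher and 4521 lower, and the pairing changed no call of a printed gene. With animals 9 and 12 kept under their labels, 3963 were higher and 4568 lower. Without the low-count filter, 4099 were higher and 5160 lower. The called genes were then 9259 of 19140 tested, no longer most of them. Leaving out each animal gave 3963 to 4343 higher and 4522 to 4749 lower genes, so no single animal moved the counts by 1.5 times. The left-out score rose by 2.32 with 50 and 2.14 with 200 genes per direction. Differences of library measures without each animal ran from -0.224 to -0.205 for the TMM factor, from -555 to -440 for genes with a count, from -1.42 to 0.337 M (megareads) for total counts and from 0.223 to 0.508 percentage points for the 10 most abundant genes. The gene lists gave no values under any setting, because none could be located. At pulled, gene ENSBTAG00000011824 had 1 count in its lowest library, so single values near zero carry large counting error.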
